A study of Homo sapiens with 6 samples.

Results

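The 10 surface-protein genes followed here in a lung cancer line are CD274, CD276, PVR, NECTIN2, CD47, CD55, CD59, MICA, MICB and ULBP2, whose products are read by T cells, natural killer (NK) cells, macrophages or the complement system. They were taken by name from a list drawn up with earlier results of these data known. All 10 were found among the 26485 gene symbols of the count table. NECTIN2 stood there under its older symbol PVRL2. Bulk RNA was sequenced from PC-9, an established human lung adenocarcinoma line with an activating EGFR mutation. The 2 groups were cells stably expressing a short hairpin RNA against IFITM3 (shIFITM3) and control cells (shControl in the labels and ShEV in the table's columns, so that a control hairpin and an empty vector cannot be told apart), with 3 biological replicates each per the labels. Both groups were the same line in the same serum-containing medium, and the labels name no drug or cytokine for these samples. The sources used here do not say how many hairpins were used or whether the lines are clones or pools. The series title places the comparison in the setting of IFITM3, the MET receptor and resistance to osimertinib, an EGFR inhibitor.

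CD274 encodes PD-L1, which binds PD-1 on T cells and restrains them, and CD276 encodes B7-H3, a member of the same B7 family. PVR (CD155) and NECTIN2 (CD112) are related adhesion proteins read by the activating receptor DNAM-1 and the inhibitory receptor TIGIT. CD47 binds SIRPα on macrophages and restrains engulfment. CD55 speeds the decay of complement convertases, and CD59 blocks assembly of the membrane attack complex. MICA, MICB and ULBP2 are relatives of MHC class I that stressed or transformed cells display to NKG2D, an activating receptor of NK cells and some T cells.

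The sequence just before an annotated transcript start is shown first for 4 of these genes, because the NKG2D ligand genes did not all move together and because CD274 is the best known checkpoint gene of the set. Each line gives the 250 bases before a RefSeq transcript start (GRCh38.p14), 5′ to 3′ on the gene's strand. All 4 genes lie on the plus strand. For CD274 and ULBP2 the window ends where the annotated gene begins, while for MICA and MICB it lies inside the annotated gene, which begins further upstream. Capitals mark letters that match 1 of 5 short patterns: the interferon-response pattern (GAAA and GAAA, 2 bases apart), the STAT pattern TTCNNNGAA, the AP-1 pattern TGANTCA, the minimal heat-shock pattern GAANNTTC and the hypoxia pattern ACGTG, each searched on both strands.
CD274, chr9:5450292-5450541: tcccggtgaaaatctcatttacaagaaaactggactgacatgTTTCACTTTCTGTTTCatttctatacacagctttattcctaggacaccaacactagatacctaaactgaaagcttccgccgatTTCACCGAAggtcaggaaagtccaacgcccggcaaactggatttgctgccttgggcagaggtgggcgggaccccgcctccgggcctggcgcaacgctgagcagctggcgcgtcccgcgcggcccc
MICA, chr6:31403345-31403594: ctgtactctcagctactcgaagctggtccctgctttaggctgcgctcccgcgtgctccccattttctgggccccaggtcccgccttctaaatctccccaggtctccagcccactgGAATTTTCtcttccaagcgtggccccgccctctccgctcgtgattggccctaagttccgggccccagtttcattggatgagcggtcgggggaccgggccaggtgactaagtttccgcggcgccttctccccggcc
MICB, chr6:31497895-31498144: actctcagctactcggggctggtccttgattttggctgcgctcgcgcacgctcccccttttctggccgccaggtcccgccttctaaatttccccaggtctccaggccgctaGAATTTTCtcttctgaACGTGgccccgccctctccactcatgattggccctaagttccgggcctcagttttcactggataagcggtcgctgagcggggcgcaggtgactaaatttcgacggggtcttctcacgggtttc
ULBP2, chr6:149941764-149942013: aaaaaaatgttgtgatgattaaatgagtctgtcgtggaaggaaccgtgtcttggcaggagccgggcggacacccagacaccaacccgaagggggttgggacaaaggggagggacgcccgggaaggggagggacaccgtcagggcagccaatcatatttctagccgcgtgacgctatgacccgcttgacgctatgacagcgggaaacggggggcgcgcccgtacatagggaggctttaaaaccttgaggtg
The CD274 window held 2 overlapping matches to the interferon-response pattern and 1 to the STAT pattern. The windows of MICA and MICB were alike, with 210 identical bases in 254 aligned columns (82.7%), and both held the heat-shock letters GAATTTTC. MICB also held 1 match to the hypoxia pattern. The ULBP2 window matched none of the 5 patterns, and in the other 3 windows no match overlapped that of a different pattern among the 5. Of 35116 windows of this length in the RefSeq table, 3.02% held the interferon-response pattern, 6.57% the STAT pattern, 6.57% the AP-1 pattern, 5.78% the heat-shock pattern and 18.5% the hypoxia pattern. In the first listed window of each of the 10 genes, the heat-shock pattern was found in CD59, MICA and MICB. The STAT pattern was in CD274 and CD59 and the interferon-response pattern in CD274 alone. The hypoxia pattern was in CD47 and MICB, and the AP-1 pattern in none. Looser patterns were too common to tell genes apart: a stand-in for NF-kB sites (GGG and CC, 5 bases apart) was in 9 of the 10 and in 54.4% of all windows, and the SP1 pattern GGGCGG in 8 of the 10 and in 42.6% of all. A match is only a run of letters and no measure of binding. TATAAA was in 10.7% of all windows and in none of the 10. These counts over the 10 genes take first windows only. Further listed windows of CD59 held 2 matches to the AP-1 pattern and 1 to the hypoxia pattern. A further CD276 window held 1 match to the hypoxia pattern.

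Libraries held between 21342028 and 27493145 counts, except for shControl replicate 2 with 77228760. IFITM3 itself was at 57.0, 60.5 and 62.8 CPM (read counts scaled to the size of the library) in the shControl replicates and at 10.4, 12.9 and 9.75 CPM in the shIFITM3 replicates, which goes with the labels. Across genes, log2(CPM + 0.5) correlated at r = 0.995 to 0.997 between libraries of a group and at 0.978 to 0.980 between groups. All 7 epithelial markers on the list for this line (EPCAM, CDH1, CLDN4 and 4 simple keratins) were expressed, at a summed 9625 to 9760 CPM in shControl and 8291 to 8506 CPM in shIFITM3. Within that sum, CLDN4 and EPCAM rose while KRT8, KRT18 and CDH1 fell (edgeR adjusted p under 0.05). KRT8 went from 3677 ± 27.3 to 2603 ± 34.2 CPM and CLDN4 from 321 ± 7.12 to 438 ± 13.9 CPM. T and NK cell markers summed to at most 0.273 CPM in any library, with 4 of 7 at 0 in all 6. Pan-leukocyte markers summed to 8.32 to 9.61 CPM in shControl and 6.0 to 6.57 CPM in shIFITM3, where the defining gene PTPRC had 4 to 13 counts in any library. Nearly all of that sum was LAPTM5 and CORO1A, which both fell (edgeR adjusted p = 8.30e-04 and 0.042). Myeloid markers summed to 64.1 to 71.4 CPM and 77.3 to 82.7 CPM, nearly all of it CD68, a lysosomal protein gene, and FCGR3A and AIF1 were at 0 in all 6 libraries. CSF1R, the other myeloid marker that could be tested, rose from 0.922 ± 0.364 to 4.401 ± 0.298 CPM (edgeR adjusted p = 6.98e-08). Endothelial markers summed to 3.14 to 4.10 CPM and 2.83 to 3.64 CPM, but PECAM1 fell from 2.70 ± 0.360 to 0.842 ± 0.0905 CPM (edgeR adjusted p = 1.21e-05) while CDH5 rose from 0.666 ± 0.288 to 2.04 ± 0.309 CPM (edgeR adjusted p = 1.27e-04). Fibroblast markers summed to 9.16 to 10.5 CPM and 9.996 to 13.6 CPM. Nearly all of that was COL1A1, which rose from 9.56 ± 0.841 to 11.5 ± 1.74 CPM (edgeR adjusted p = 0.0381), with overlapping groups. What part, if any, these differences in markers have in the results was not tested.

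In all, 6 of the 10 genes, CD274, CD47, CD55, CD59, MICA and MICB, were more abundant in IFITM3 knockdown cells, by 1.68-fold to 2.74-fold, and none was less abundant (quasi-likelihood test of edgeR, adjusted p under 0.05 after Benjamini-Hochberg correction over all genes). CD276, PVR, NECTIN2 and ULBP2 did not pass the threshold. All 10 had enough counts to be tested. The background was wide: of 14018 tested genes 27.7% were called higher in shIFITM3, 28.4% lower and 56.1% either way. In CPM, shIFITM3 and shControl replicates did not overlap for 6 of the 10 genes, close to the 60.9% of all tested genes for which this held, so lack of overlap is no feature of these genes. The median log2 fold change of the 10 was 0.80, beside -6.33e-05 over all tested genes. As the 10 were chosen with earlier results of these data known, these comparisons with the background only describe the set and are no test of it. In bulk RNA, more cells carrying a transcript and more transcript per cell cannot be told apart, and surface protein was not measured here.

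**Figure D1:**
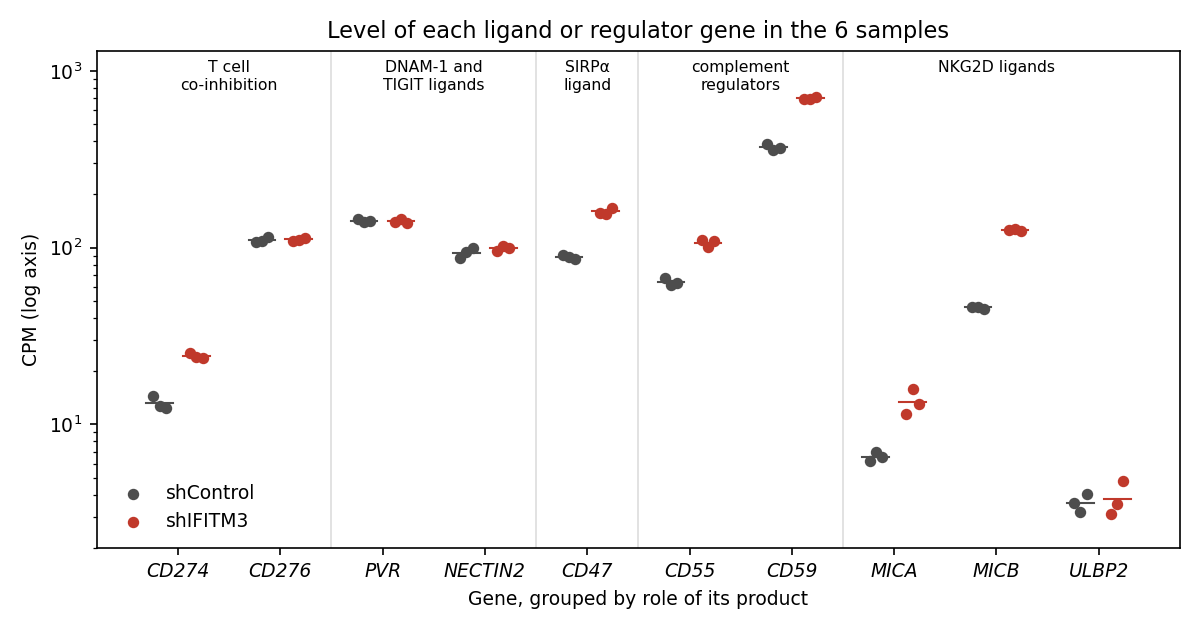
Level of each gene in every sample, as CPM on a log axis. Points are the 3 replicates of shControl (grey) and shIFITM3 (red) and bars their means, with genes ordered by the role of their product. The groups are apart for CD274, CD47, CD55, CD59, MICA and MICB and overlap for CD276, PVR, NECTIN2 and ULBP2, and CD59 is highest at 369 ± 13.3 and 700 ± 9.52 CPM (mean ± SD, n = 3).

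Among the ligands that restrain T cells, CD274 rose while CD276 gave no call. CD274 (chromosome 9, 5450542 to 5470554) was at 14.4, 12.6 and 12.4 CPM in the shControl replicates (306, 972 and 339 counts) and at 25.4, 24 and 23.7 CPM in the shIFITM3 replicates (559, 552 and 566 counts). All 3 knockdown samples lay above all 3 controls. The difference was 1.87-fold (95% interval 1.65 to 2.11), or 0.90 on the log2 scale (standard error, SE, 0.085; adjusted p = 3.27e-09 in edgeR), and 93.9% of tested genes had a lower log2 fold change. CD276 (chromosome 15, 73683944 to 73714514) was at 107, 109 and 114 CPM in shControl and 109, 111 and 113 CPM in shIFITM3. Its groups overlapped throughout, and the interval of the difference ran from a log2 fold change of -0.07 to 0.10 (edgeR adjusted p = 0.777), so a change as large as that of CD274 lies outside it. Within each library the ratio of CD274 to CD276 counts, which needs no scaling between libraries, was 0.134, 0.116 and 0.108 in shControl and 0.232, 0.216 and 0.209 in shIFITM3. No transcript stretch of 50 bases in CD274 is shared with another gene in GENCODE 29, and no exon of another gene overlaps it.

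The gene for the other PD-1 ligand, PDCD1LG2 (PD-L2), lies downstream of CD274 on chromosome 9 (5510531 to 5571282). It was at 5.09, 5.47 and 5.25 CPM in shControl and at 12.7, 14.8 and 12.3 CPM in shIFITM3. Both PD-1 ligand genes thus rose, PDCD1LG2 by 1.32 in log2 units (SE 0.116, adjusted p = 8.33e-10 in edgeR).

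The genes for the ligands of DNAM-1 and TIGIT gave no call. PVR (chromosome 19, 44643910 to 44666162) was at 144, 140 and 141 CPM in the shControl replicates and 140, 145 and 138 CPM in the shIFITM3 replicates. Its log2 fold change was -0.01 with an interval of -0.09 to 0.07 (edgeR adjusted p = 0.883). NECTIN2 (chromosome 19, 44846297 to 44889223) was at 87.1, 94.2 and 99.9 CPM against 95.4, 103 and 98.9 CPM. Replicates 1 and 2 of shControl lay below every shIFITM3 sample, and replicate 3 of shControl lay among them. The log2 fold change was 0.08 with an interval of -0.02 to 0.18 (edgeR adjusted p = 0.182). The upper bounds of both intervals correspond to a 1.05-fold and a 1.13-fold difference. Both genes share a little exon sequence with neighbours, PVR with CEACAM19 on the same strand (121 bases) and NECTIN2 with a non-coding gene on the opposite strand (128 bases).

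CD47 (chromosome 3, 108043091 to 108091031) was higher in all 3 knockdown samples. It was at 90.5, 88.2 and 86.6 CPM in shControl and at 158, 154 and 168 CPM in shIFITM3, a 1.81-fold difference (95% interval 1.71 to 1.93, log2 fold change 0.86, SE 0.042, edgeR adjusted p = 1.78e-14). The lowest knockdown value was well above the highest control value. Against PVR, which gave no call, the count of CD47 went from 0.627, 0.631 and 0.612 per PVR count in shControl to 1.13, 1.07 and 1.22 in shIFITM3.

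Of the partners of CD47 on a list chosen by function, 2 of 4 tested genes rose and 0 fell (median log2 fold change 0.16). Over all tested genes 27.7% were called higher and 28.4% lower. THBS1, which encodes thrombospondin-1, a secreted CD47 ligand, rose from 1507 ± 57.8 to 2205 ± 69.3 CPM (log2 fold change 0.55, adjusted p = 5.65e-14 in edgeR), although its exons overlap those of FSIP1 and a second gene on the opposite strand. ITGAV, an integrin subunit that pairs with CD47-associated beta chains, rose by 0.33. The beta chain gene ITGB3, also on the list, had 4 to 19 counts a library and was too low to be tested. SIRPA, which encodes the receptor for CD47, was itself expressed by these cells, at 83.0 ± 1.91 and 82.2 ± 2.21 CPM (adjusted p = 0.779, edgeR).

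Both membrane regulators of complement rose. CD55 (chromosome 1, 207321678 to 207360966) was at 67.2, 61.5 and 62.7 CPM in shControl and 111, 100.3 and 110 CPM in shIFITM3, a 1.68-fold difference (95% interval 1.57 to 1.80, edgeR adjusted p = 3.46e-12). CD59 (chromosome 11, 33703010 to 33736479) was at 384, 359 and 365 CPM in shControl (8154, 27619 and 10008 counts) and 692, 696 and 710 CPM in shIFITM3 (15236, 16007 and 16973 counts). Its difference was 1.90-fold (95% interval 1.81 to 1.98), or 0.92 in log2 units (SE 0.031, adjusted p = 1.03e-17 in edgeR). For each of these genes the knockdown samples were all above the controls. CD59 was the most abundant of the 10 by CPM, and it made up 60.1% of the rise in their summed level, from 936 to 1485 CPM. The ratio of CD55 to CD59 counts was 0.175, 0.171 and 0.172 in shControl and 0.160, 0.144 and 0.154 in shIFITM3. Of the 50-base stretches of CD59 transcripts, 5.91% also occur in another gene, most in an unnamed transcript on the same strand.

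A further 11 complement regulators were listed, of which 5 could be tested. Of these 1 rose and 1 fell, beside 27.7% higher and 28.4% lower over all tested genes. Their median log2 fold change was 0.14. CD46, a cofactor for cleavage of C3b and C4b whose gene lies in the same region of chromosome 1 as CD55 (207752038 to 207795516), rose from 169 ± 2.10 to 255 ± 10.96 CPM (log2 fold change 0.60, adjusted p = 1.19e-12 in edgeR). Thus the 3 membrane regulators CD46, CD55 and CD59 all rose. CLU, a secreted inhibitor of the membrane attack complex, fell from 140 ± 2.45 to 117 ± 1.65 CPM (-0.27, edgeR adjusted p = 2.56e-06). SERPING1 (C1 inhibitor) averaged 0.979 ± 0.253 CPM over the shControl libraries, against 1.36 ± 0.0829 CPM over those with shIFITM3 (SD, n = 3 each), and gave no call (log2 fold change 0.41, adjusted p = 0.262 in edgeR). CR1 and CSMD1 had no count in any sample.

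The NKG2D ligands split. MICB (chromosome 6, 31494918 to 31511124) showed the largest fold change of the 10. It went from 46.0, 46.4 and 45.1 CPM in shControl (975, 3570 and 1237 counts) to 125, 128 and 124 CPM in shIFITM3 (2753, 2947 and 2975 counts). This was 2.74-fold (95% interval 2.58 to 2.92), or 1.46 in log2 units (SE 0.043, adjusted p = 1.25e-18 in edgeR), and 97.8% of tested genes had a lower log2 fold change. MICA (chromosome 6, 31400711 to 31415315), its neighbour and close relative, was scarcer. It was at 6.17, 7.01 and 6.495 CPM in shControl (131, 540 and 178 counts) and 11.4, 15.8 and 13.01 CPM in shIFITM3 (251, 364 and 311 counts). The lowest knockdown sample stood above the highest control, and the difference was 2.02-fold (95% interval 1.70 to 2.41, log2 fold change 1.02, SE 0.122, edgeR adjusted p = 1.51e-07). The knockdown values of MICA spread more than those of MICB.

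The balance between these genes was also compared. The ratio of MICA to MICB counts was 0.134, 0.151 and 0.144 in shControl and 0.0912, 0.124 and 0.105 in shIFITM3, lower in all 3 knockdown samples than in any control, and the fold intervals of MICA and MICB did not overlap. An exact two-sided permutation test of this ratio gave p = 0.1 (0.125 after adjustment over 5 ratios), the smallest that 3 samples against 3 allow, so no ratio given here could pass 0.05. All 5 ratios were picked with values already seen. Of the sequence the 2 genes share, 1.89% of the 50-base stretches in MICA transcripts also occur in MICB, and 1.61% of those in MICB also occur in MICA. MICB is the more abundant gene, and what part shared reads have in the level of MICA was not tested. HCP5, a non-coding gene whose annotated exons overlap 62 bases of MICA on the same strand, went from 4.403 ± 0.320 to 9.01 ± 0.355 CPM (log2 fold change 1.05, edgeR adjusted p = 2.67e-07). Thus MICA, HCP5 and MICB, which lie in the same region of chromosome 6, all rose.

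ULBP2 (chromosome 6, 149942014 to 149949235), a ligand of the same receptor that is held by a lipid anchor, gave no call. It was at 3.58, 3.18 and 4.01 CPM in shControl (76, 245 and 110 counts) and 3.09, 3.52 and 4.77 CPM in shIFITM3 (68, 81 and 114 counts). The highest and the lowest of the 6 values both came from knockdown samples. The log2 fold change was 0.10 (SE 0.191, adjusted p = 0.682 in edgeR), and its 95% interval of -0.30 to 0.50, the widest of the set, leaves out differences of the size seen for MICA and MICB. ULBP2 is also the least certain by sequence, since 32.2% of its 50-base stretches occur in RAET1L or RAET1G. RAET1L was at 1.11 ± 0.299 and 1.15 ± 0.146 CPM (adjusted p = 0.771, edgeR) and RAET1G had at most 17 counts in a library, too few to be tested.

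**Figure D2:**
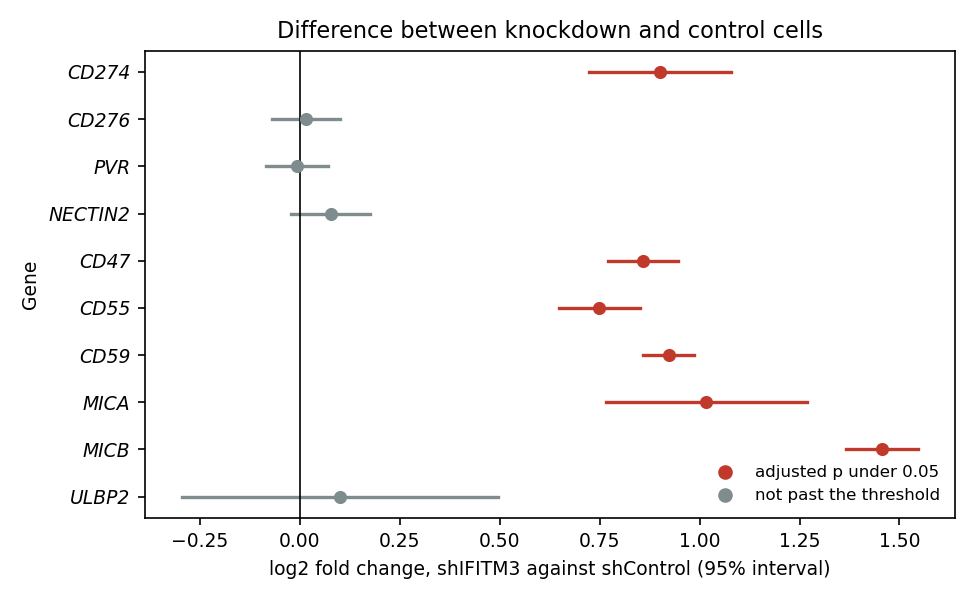
Log2 fold change of each gene, shIFITM3 against shControl, with its 95% interval (edgeR). Red points passed an adjusted p of 0.05 and grey points did not. The 6 called genes lie between 0.75 (CD55) and 1.46 (MICB), and the intervals of CD276, PVR, NECTIN2 and ULBP2 span 0.

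Levels of different genes were compared per kilobase of annotated exon (GENCODE 29), a scale that takes all annotated exons as used. In control cells PVR was highest, at 40.3 ± 0.663 CPM per kilobase, followed by CD59 (35.7 ± 1.28), NECTIN2 (25.02 ± 1.71), CD276 (19.9 ± 0.662) and MICB (16.4 ± 0.225). CD55 (10.8 ± 0.505) and CD47 (10.7 ± 0.239) could not be told apart on this scale, and neither could MICA (2.75 ± 0.178) and ULBP2 (2.66 ± 0.308). CD274, at 3.20 ± 0.272, came next above them, with an SD range that just touched theirs. In knockdown cells CD59 (67.5 ± 0.919) and MICB (45.0 ± 0.698) stood above PVR (40.0 ± 0.970). CD276 (20.1 ± 0.347), CD47 (19.5 ± 0.898) and CD55 (18.1 ± 0.960) lay close together, with the spread of CD47 touching that of each of the other two. CD274 (5.93 ± 0.222) and MICA (5.62 ± 0.938) overlapped, and ULBP2 (2.81 ± 0.647) was lowest.

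**Figure D3:**
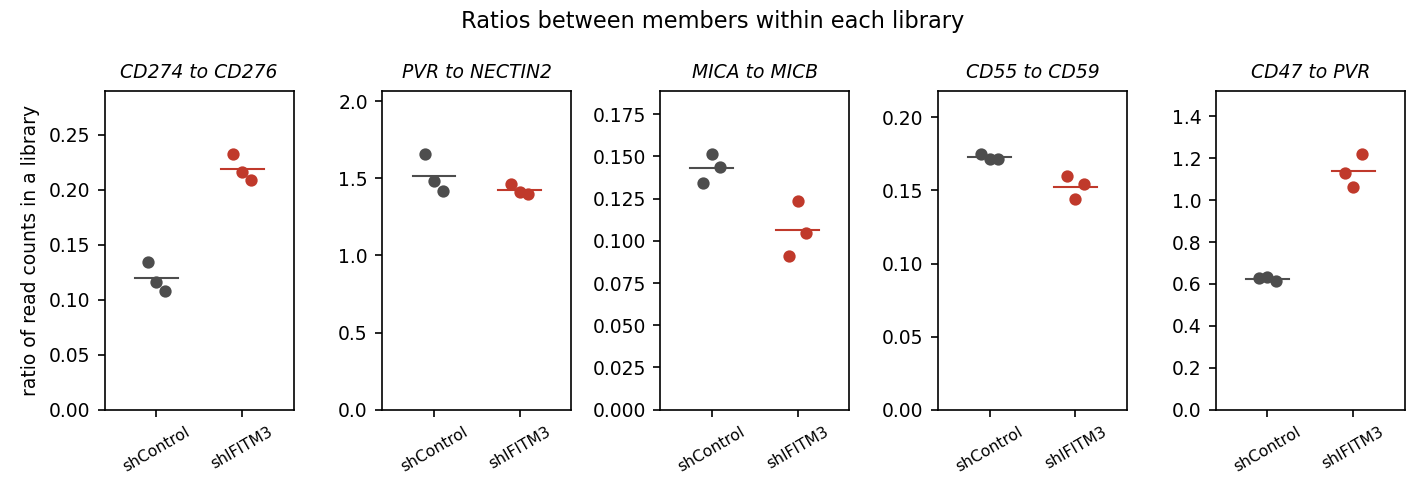
Ratios of read counts between members within each library, which do not depend on how libraries are scaled. Points are replicates, bars are means, and each axis starts at 0. The ratio of CD274 to CD276 is 0.1196 ± 0.0133 in shControl and 0.219 ± 0.0118 in shIFITM3, that of MICA to MICB falls below all control values in shIFITM3, and that of PVR to NECTIN2 overlaps between groups (mean ± SD, n = 3).

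Related genes were then counted on 8 lists drawn up by function, with results for the whole transcriptome already known. For comparison, 27.7% of all tested genes were called higher and 28.4% lower. Of 18 tested genes on a list of other checkpoint ligands and surface enzymes 8 rose and 3 fell (median log2 fold change 0.20). Those that rose include BTN3A1, BTN3A2 and BTN3A3, so the count is not one of inhibitory ligands only. NT5E (CD73), which makes immunosuppressive adenosine, rose from 160 ± 6.68 to 364 ± 8.14 CPM (1.18, edgeR adjusted p = 1.67e-18). VSIR, which encodes the checkpoint protein VISTA and stood in the table as C10orf54, fell from 62.6 ± 3.66 to 29.8 ± 1.63 CPM (-1.08, edgeR adjusted p = 1.74e-13). CD24, which binds Siglec-10 on macrophages, fell from 132 ± 2.24 to 93.7 ± 3.56 CPM (-0.50), so the genes for the macrophage-restraining proteins CD47 and CD24 moved in opposite directions.

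Co-stimulatory and adhesion molecules rose in 5 of 6 tested cases with 0 falls (median 0.82), beside 27.7% higher and 28.4% lower over all tested genes. ICAM1, the ligand of the integrin LFA-1, rose from 47.2 ± 1.97 to 87.7 ± 1.74 CPM (0.90, edgeR adjusted p = 8.78e-14), although its exons overlap 2 genes on the opposite strand, by 876 bases in all. TNFSF9 (4-1BB ligand) went from 4.69 ± 0.205 to 12.6 ± 2.52 CPM, CD40 from 2.62 ± 0.179 to 6.79 ± 0.371 CPM and TNFSF15 from 2.86 ± 0.119 to 4.80 ± 0.285 CPM. CD80 and CD86, the ligands of CD28 and CTLA-4, had no count in any of the 6 libraries.

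Among other NK cell ligands was the largest fold change of these lists, that of CLEC2B. Of 13 tested genes 5 rose and 2 fell, with a median of 0.02, beside 27.7% higher and 28.4% lower over all tested genes. CLEC2B, which encodes AICL, the ligand of the activating receptor NKp80, was at 0.377, 0.351 and 0.511 CPM in shControl (8, 27 and 14 counts) and 7.86, 4.70 and 5.90 CPM in shIFITM3 (173, 108 and 141 counts). Its log2 fold change was 3.94 (SE 0.272, adjusted p = 1.11e-11 in edgeR), with exon sequence shared with a non-coding gene on the opposite strand. NCR3LG1, which encodes B7-H6, the ligand of the activating receptor NKp30, went from 0.848, 1.05 and 1.17 CPM to 5.13, 5.17 and 6.61 CPM (2.44, SE 0.215, edgeR adjusted p = 9.06e-10). Both were scarce in control cells and higher in every knockdown sample. HLA-E, read by the inhibitory receptor NKG2A, rose from 121 ± 0.666 to 205 ± 5.88 CPM (0.76), with the caveat that HLA genes share sequence. CDH1 (E-cadherin, bound by the inhibitory receptor KLRG1) fell from 177 ± 2.05 to 117 ± 2.72 CPM (-0.60). The NKG2D ligand genes ULBP1, ULBP3 and RAET1E, at under 2 CPM in both groups, gave no call, so among the tested NKG2D ligand genes the calls were those of MICA and MICB.

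**Figure D4:**
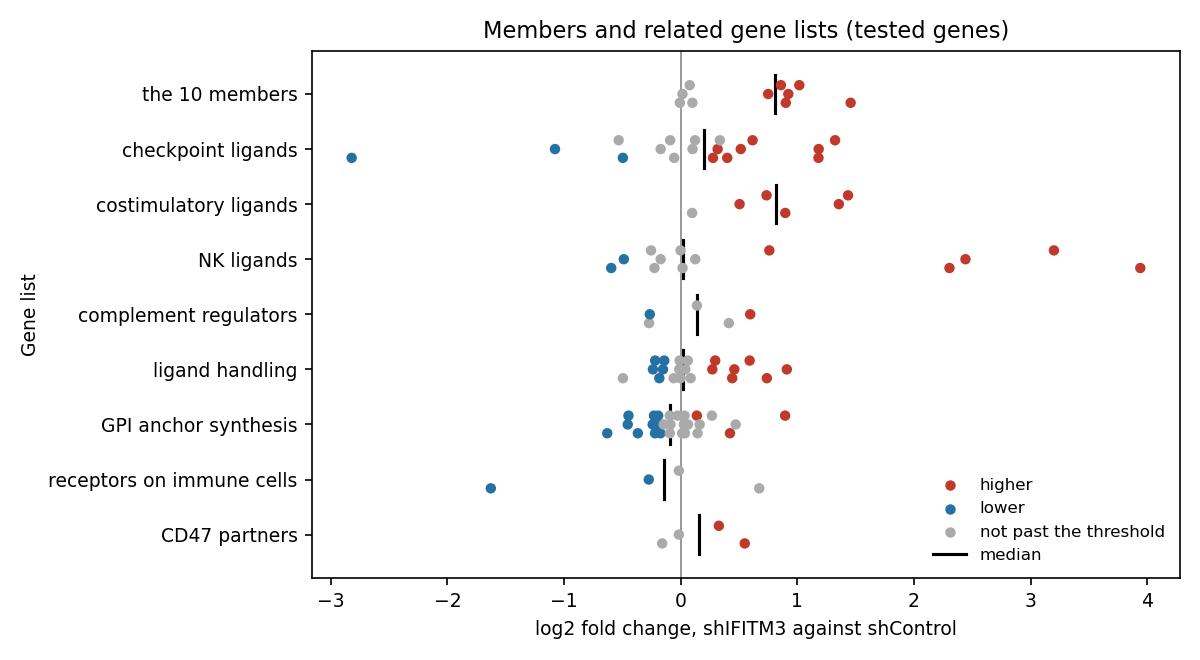
Log2 fold changes of the tested genes of the 10 members and of the 8 related lists, one point per gene. Red points were called higher, blue points lower and grey points neither, and black bars are medians. The medians are 0.80 for the 10 genes, 0.82 for co-stimulatory ligands and -0.09 for lipid anchor synthesis.

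CD55, CD59 and ULBP2 are tethered by glycosylphosphatidylinositol (GPI), a lipid anchor built in the endoplasmic reticulum. Of 27 tested genes for making and attaching that anchor 3 rose and 10 fell, with a median log2 fold change of -0.09. PIGS and PIGU, subunits of the transamidase that attaches the anchor, fell by 0.45 each on the log2 scale, from 62.8 ± 3.35 to 45.9 ± 2.50 CPM and from 38.8 ± 0.354 to 28.4 ± 1.05 CPM. PGAP1, which remodels the anchor, fell from 8.92 ± 0.449 to 5.74 ± 0.657 CPM. DPM3, a subunit of the enzyme that makes the mannose donor, rose from 4.50 ± 0.785 to 8.58 ± 0.395 CPM. Over all tested genes 27.7% rose, 28.4% fell and 56.1% were called either way. The number of anchor genes that fell is thus not far from the background, while the number that rose is below it. The list was not tested as a set.

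Genes that shed, stabilise or modify these ligands went both ways, 7 of 20 higher and 5 lower (median 0.02), counts near the 27.7% and 28.4% of all tested genes. The number lower was 3 without shControl replicate 2, shIFITM3 replicate 1 or shIFITM3 replicate 3. HIP1R, which directs PD-L1 to lysosomes, rose from 21.9 ± 2.11 to 41.2 ± 1.14 CPM (0.91, edgeR adjusted p = 7.40e-11). CMTM4, which stabilises PD-L1, rose from 135 ± 3.05 to 186 ± 2.62 CPM (0.46), and its relative CMTM3 by 0.74. ZDHHC9, a palmitoyltransferase that acts on PD-L1, rose by 0.30. The main PD-L1 stabiliser CMTM6 (203 ± 1.51 and 212 ± 12.6 CPM) and the shedding proteases ADAM10 (290 ± 7.89 and 290 ± 1.38 CPM) and ADAM17 (91.0 ± 1.82 and 87.3 ± 3.95 CPM) gave no call, although CMTM6 was called higher without shIFITM3 replicate 2 (log2 fold change 0.11, edgeR adjusted p = 0.0135). MMP14, another protease on the list, rose from 19.3 ± 0.866 to 29.3 ± 1.57 CPM (0.59, edgeR adjusted p = 2.67e-07). MMP2 gave no call and MMP9 was too low to be tested. CMTM6 and these proteases were picked after their values were seen, for their known part in shedding and stability.

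Most receptors for these ligands, which belong largely to immune cells, were near or at 0, with SIRPA and ADGRE5 as exceptions. Of 14 listed genes 10 were too low to be tested and 6 of those had no count in any library, KLRK1 (NKG2D) and TIGIT among them. PDCD1 (PD-1) had at most 12 counts in a library and CD226 (DNAM-1) at most 5. Of the 4 tested, 0 rose and 2 fell (median -0.14), beside 27.7% called higher and 28.4% lower over all tested genes. ADGRE5 (CD97), the receptor of CD55, fell from 85.6 ± 3.03 to 70.9 ± 0.552 CPM (-0.27, edgeR adjusted p = 1.40e-05). SIRPG, a second CD47 receptor gene, fell from 1.51 ± 0.535 to 0.468 ± 0.193 CPM, at counts so low and with relatives so similar that its value is uncertain. PVRIG, a receptor of NECTIN2, had a log2 fold change of 0.67 and no call (edgeR adjusted p = 0.071), and most of its exon sequence lies within STAG3 on the same strand.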

How the data were processed

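RNA was measured in 6 PC-9 samples. The deposited table holds the authors' raw counts of reads by gene symbol, without normalization. The submitters' processing notes name HISAT2 2.2.1 with featureCounts of Subread 2.0.6, the read tools fastp 0.23.4, FastQC 0.12.1 and SAMtools 1.20, and genome build hg38. The libraries were made with a stranded messenger RNA kit, per the labels' protocols. Which annotation and strand setting were used for counting is not given in the sources used here. Reads of overlapping genes may therefore be mixed.

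The analysis used edgeR 4.0.16 in R 4.3.3: filterByExpr by group, TMM scaling, glmQLFit on group alone, two-sided glmQLFTest and Benjamini-Hochberg adjustment over 14018 tested genes, with a threshold of 0.05. CPM use the TMM-scaled library sizes. SE is the absolute log2 fold change over the square root of F, and 95% intervals follow from it. A count of 0 allows up to 3 counts, between 0.0388 and 0.141 CPM by library, for counting error only. The procedure was tried on simulated data in which few genes changed, in equal numbers up and down. That setting differs from these data, where 56.1% of tested genes were called, so it does not show how the fit performs here. Replicates of a group differed by more than counting noise (chi-square per degree of freedom 2.79 to 5.06).

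The members and the gene lists were chosen with earlier results of these data known. All members are named, and of each list the 4 tested genes with the smallest p. A gene that this rule takes is not reported here. HCP5, RAET1L, RAET1G and a few further genes are named for their place or function, after their values were seen. Coordinates and promoter windows are from RefSeq (GRCh38.p14, the same assembly as hg38). All 10 members matched a row there. Exons and transcripts are from GENCODE 29. DESeq2 1.42.0, limma-voom (limma 3.58.1), other scalings and filters, a replicate block, a thinned deep library and leaving out each sample were tried as alternatives.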

Additional observations from a re-analysis of the deposited data

How the results depend on the processing

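Under 15 alternatives (9 other settings and 6 fits without 1 sample each) the calls of all 10 members were as given, with 6 higher and 0 lower each time. The log2 fold change of MICA ranged from 0.88 (without shIFITM3 replicate 2) to 1.12, and that of MICB from 1.44 to 1.47. CD276, PVR and ULBP2, none called in any fit, had values on both sides of 0. Over all genes, 3695 to 3990 were called higher and 3704 to 4261 lower in the other settings, and 3560 to 3736 and 3564 to 3844 without 1 sample. With at least 50 counts required in at least 3 samples, fewer genes were tested, and 3 ligands of other NK receptors were called higher and 1 receptor gene lower. With shControl replicate 2 thinned to the median depth of the others 1 receptor gene, PVRIG, was called higher (edgeR adjusted p = 0.0353). Genes for ligand handling called lower numbered 4 to 5 in the other settings and 3 to 5 without 1 sample. Samples with the same replicate number did not deviate together (r = 0.026, 0.047 and 0.0041 across genes), and not every sample matched its own number best. The numbers are therefore not taken to pair samples. With the replicate number as a block 6 members were called higher and 0 lower, and over all genes 3865 were higher and 4005 lower. Depth limits ULBP2 most, with 68 to 245 counts a library.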
